A study of Mus musculus with 8 samples.

Results

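The Cyp2c genes encode a family of cytochrome P450 enzymes, haem proteins of the endoplasmic reticulum that oxidise drugs, steroids and polyunsaturated fatty acids. The 10 genes described here are Cyp2c29, Cyp2c37, Cyp2c38, Cyp2c39, Cyp2c40, Cyp2c44, Cyp2c50, Cyp2c54, Cyp2c55 and Cyp2c69. They were taken by name with earlier results of these data known, and are 10 of the 25690 genes of the deposited table. Ensembl identifiers were matched to symbols with GENCODE mouse release M21 (mm10), where Cyp2c44 carries the newer symbol Cyp2c23. Another 5 Cyp2c genes, Cyp2c65, Cyp2c66, Cyp2c67, Cyp2c68 and Cyp2c70, were followed beside them.

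Liver RNA of mice with a hepatic FOXO1 knockout (4 libraries, numbered 3, 9, 10 and 11) was set against that of wildtype controls (4 libraries, numbered 1, 3, 10 and 12). The comparison asks how the liver transcriptome differs when this forkhead transcription factor, which insulin signalling keeps out of the nucleus, is removed from the liver. The sources used here do not give the way the deletion was made, or the strain, sex and age. Nor do the labels say whether each library is a different mouse, and p-values reflect the spread among libraries, which may be technical.

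Mouse Cyp2c enzymes turn arachidonic acid into epoxyeicosatrienoic and hydroxyeicosatetraenoic acids and turn linoleic acid into epoxides. Soluble epoxide hydrolase breaks down the epoxides among these lipid mediators. The Cyp2c enzymes draw electrons from cytochrome P450 reductase and cytochrome b5. In the liver several of them are inducible through the constitutive androstane receptor, encoded by Nr1i3, and the pregnane X receptor, encoded by Nr1i2, and basal expression depends on hepatocyte factors such as HNF4A. Most of the family lies in a single gene cluster whose copies are so alike that sequencing reads can be assigned to the wrong copy.

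The cluster spans chr19:39007019-40187333 (mm10), 1180 kb, and runs in the order Cyp2c55, Cyp2c65, Cyp2c66, Cyp2c29, Cyp2c38, Cyp2c39, Cyp2c67, Cyp2c68, Cyp2c40, Cyp2c69, Cyp2c37, Cyp2c54, Cyp2c50 and Cyp2c70. Cyp2c44 (ENSMUSG00000025197, chr19:44005022-44029208, minus strand) lies 3.82 Mb beyond it. Aligned over their coding sequences (GENCODE M21), the genes fell into groups at a cut of 85% identity: Cyp2c37, Cyp2c50 and Cyp2c54 (95.1% to 96.1% identical), Cyp2c29, Cyp2c38 and Cyp2c39 (89.1% to 94.2%), Cyp2c40, Cyp2c67, Cyp2c68 and Cyp2c69 (96.5% to 98.1%), and Cyp2c65 with Cyp2c66 (96.3%). Cyp2c55 (77.4% to its nearest relative, Cyp2c29), Cyp2c70 (69.5%, Cyp2c66) and Cyp2c44 (66.9%, Cyp2c66) stood alone.

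How alike the copies are can be read from the first 90 coding bases of Cyp2c37, Cyp2c50 and Cyp2c54, the group with the lowest knockout levels relative to wildtype. Capitals mark the bases that differ from Cyp2c50, of which there are 2 in Cyp2c37 and 6 in Cyp2c54.
Cyp2c50: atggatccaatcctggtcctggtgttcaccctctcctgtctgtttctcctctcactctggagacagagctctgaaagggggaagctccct
Cyp2c37: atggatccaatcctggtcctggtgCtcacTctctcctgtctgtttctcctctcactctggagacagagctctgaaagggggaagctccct
Cyp2c54: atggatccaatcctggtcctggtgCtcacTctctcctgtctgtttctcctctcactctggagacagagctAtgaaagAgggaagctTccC
Of all stretches of 100 coding bases, 5.8% in Cyp2c37, 11.6% in Cyp2c50 and 9.3% in Cyp2c54 also occurred unchanged in another Cyp2c transcript. For stretches of 50 bases the shares were 32.2%, 32.4% and 26.9%. Sharing was greatest in Cyp2c40 (50.6% of 100-base stretches), Cyp2c69 (40.8%), Cyp2c67 (27.2%) and Cyp2c68 (22.9%). It was 0% at 100 bases in Cyp2c29, Cyp2c38, Cyp2c39, Cyp2c55, Cyp2c70 and Cyp2c44. At 50 bases it was 13.7% in Cyp2c38, 13.1% in Cyp2c39 and 0.6% in Cyp2c29, and 0% in Cyp2c55, Cyp2c70 and Cyp2c44. The split of reads among the copies of a group is therefore uncertain, most of all for the Cyp2c40 group, and summed levels of each group are given beside those of single genes.

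Upstream sequences are shown for the genes whose levels in knockout liver lay farthest below wildtype and for close relatives that lay nearer to it. They are the 250 bases before the transcription start in the RefSeq promoter table (GRCm38.p6, the build also called mm10), read on the gene's own strand: Cyp2c37 at chr19:39992174-39992423 (plus), Cyp2c50 at chr19:40089429-40089678 (plus), Cyp2c38 at chr19:39463076-39463325 (minus), Cyp2c39 at chr19:39510572-39510821 (plus) and Cyp2c29 at chr19:39286835-39287084 (plus). The Cyp2c29 window lies inside the GENCODE interval of that gene (chr19:39269405-39330713), so its RefSeq start differs from the GENCODE gene start. Capitals mark TGTTTAC, the core of FoxO and FoxA sites, and CAAAGTC, a core of HNF4 sites.
Cyp2c37 promoter: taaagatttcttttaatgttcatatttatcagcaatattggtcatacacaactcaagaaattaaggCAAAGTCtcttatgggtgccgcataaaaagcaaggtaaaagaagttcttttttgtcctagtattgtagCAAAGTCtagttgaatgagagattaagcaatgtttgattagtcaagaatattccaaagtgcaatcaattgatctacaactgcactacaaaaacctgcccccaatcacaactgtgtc
Cyp2c50 promoter: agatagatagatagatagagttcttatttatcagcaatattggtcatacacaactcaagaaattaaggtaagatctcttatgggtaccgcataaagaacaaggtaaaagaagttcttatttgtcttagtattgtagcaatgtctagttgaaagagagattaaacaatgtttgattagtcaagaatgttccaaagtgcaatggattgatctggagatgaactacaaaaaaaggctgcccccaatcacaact
Cyp2c38 promoter: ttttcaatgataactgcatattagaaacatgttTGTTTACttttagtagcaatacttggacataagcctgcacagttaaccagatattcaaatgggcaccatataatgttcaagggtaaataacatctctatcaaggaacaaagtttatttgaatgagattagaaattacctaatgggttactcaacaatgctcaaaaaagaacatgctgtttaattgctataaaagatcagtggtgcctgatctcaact
Cyp2c39 promoter: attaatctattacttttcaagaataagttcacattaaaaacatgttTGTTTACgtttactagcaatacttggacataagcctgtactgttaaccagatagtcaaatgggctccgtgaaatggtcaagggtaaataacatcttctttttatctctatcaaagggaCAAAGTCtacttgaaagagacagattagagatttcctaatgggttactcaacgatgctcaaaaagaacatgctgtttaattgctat
Cyp2c29 promoter: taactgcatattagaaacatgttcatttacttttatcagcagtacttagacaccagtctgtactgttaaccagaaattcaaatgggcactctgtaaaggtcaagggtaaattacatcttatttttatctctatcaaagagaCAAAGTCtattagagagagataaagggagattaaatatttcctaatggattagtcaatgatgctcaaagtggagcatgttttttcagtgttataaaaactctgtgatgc
Both strands of 300 bases, 250 before and 50 after the start, were searched for 3 motifs, and no match of a motif overlapped one of another. The table held 14 windows for 13 of the 15 Cyp2c genes, with 2 windows for Cyp2c39. Cyp2c54 and Cyp2c44 had none. TGTTTAC (or GTAAACA) lay in the windows of Cyp2c38, at -217 from the start, and of Cyp2c39, at -204 and -232 from the starts of its 2 windows. The Cyp2c39 window with the match at -232 (chr19:39347096-39347345 before its start) lies between Cyp2c29 and Cyp2c38, away from the Cyp2c39 gene. The motif was found in 3.6% of all 32851 windows. CAAAGTC (or GACTTTG) lay in 11 of the 14 windows, against 4.4% of all windows. They were windows of 10 of the 13 genes, the exceptions being Cyp2c38, Cyp2c50 and Cyp2c55. The motif occurred at -184 and -116 in Cyp2c37 and at -109 in Cyp2c29. Several of these windows are near copies, such as Cyp2c40 and Cyp2c69 (98.9% identical) and Cyp2c65 and Cyp2c66 (94.5%), so the matches are not independent. AGTTCA (or TGAACT), a nuclear receptor half-site, lay in Cyp2c39, Cyp2c40, Cyp2c50 and Cyp2c69 and in 14.0% of all windows. The upstream windows of Cyp2c37 and Cyp2c50 were 89.5% identical to each other, and those of Cyp2c38 and Cyp2c39 88.2% over the Cyp2c39 window shown. A match of letters is a description and not a binding site.

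Depth, estimated from the FPKM value of a single fragment, was 29.9 M to 35.1 M fragments in the knockout libraries and 26.6 M to 31.3 M in the wildtype libraries. FPKM are fragment counts scaled to transcript length and library depth, so levels of different genes can be compared per length. Foxo1, the targeted gene, had 0.224, 0.267, 0.375 and 0.212 FPKM in knockouts 3, 9, 10 and 11, against 3.21, 3.01, 3.38 and 3.81 FPKM in wildtypes 1, 3, 10 and 12, a 12.5-fold lower mean. Hepatocyte markers summed to 20820 to 28170 FPKM in knockout and 23900 to 25140 FPKM in wildtype libraries, and 0 of the 7 tested passed (limma with Benjamini-Hochberg adjustment, where 14.4% of all tested genes did). Knockouts 3 and 11 stood apart from the other libraries. Saa1, an acute phase gene, had 28410, 573, 266 and 33010 FPKM in knockouts 3, 9, 10 and 11, and the wildtype libraries averaged 117.5 FPKM, so where a call given below for a named gene was lost without knockouts 3 and 11, that value stands beside it.

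All 10 genes had a mean of at least 1 FPKM and were tested, and each had a lower mean in knockout than in wildtype liver. Tests were fitted with limma on log2(FPKM + 1) over 10250 genes, with p-values adjusted over all of them, while the 95% intervals given are not adjusted. In that fit 6 of the 10, Cyp2c29, Cyp2c37, Cyp2c38, Cyp2c50, Cyp2c54 and Cyp2c55, were lower in knockout liver and 0 were higher, where 11.7% of all tested genes were lower and 2.7% higher (adjusted p under 0.05). Over the 13 tested Cyp2c genes, those outside the 10 included, 7 were lower and 0 higher. The median log2 change was -1.12 over the 10 genes and -0.08 over all tested genes. The libraries of the 2 genotypes did not overlap for 5 of the 10, against 16.5% of all tested genes with every knockout library below every wildtype library and 4.83% with every one above. In bulk RNA, fewer cells that express a gene and less RNA per cell cannot be told apart.

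**Figure D1:**
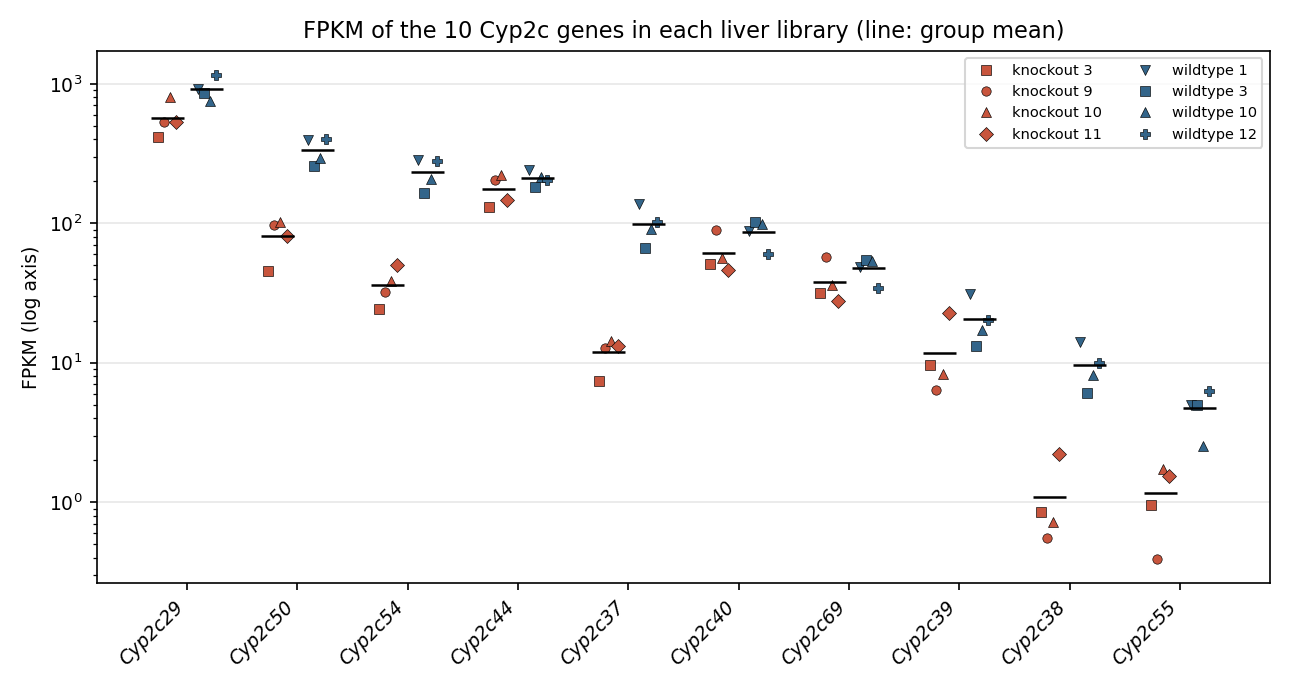
FPKM (log axis) of the 10 Cyp2c genes in 4 knockout and 4 wildtype libraries, with points for single libraries, symbols for the number in the library's title and lines for group means. Cyp2c50, Cyp2c54, Cyp2c37, Cyp2c38 and Cyp2c55 have every knockout point below every wildtype point, while the points of Cyp2c29, Cyp2c44, Cyp2c40, Cyp2c69 and Cyp2c39 overlap.

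Cyp2c37, Cyp2c50 and Cyp2c54, neighbours in the distal part of the cluster, were the genes of the family lowest in knockout relative to wildtype liver by log2 change, together with Cyp2c38. Cyp2c37 (ENSMUSG00000042248, chr19:39992424-40012243, plus strand) encodes an enzyme that hydroxylates arachidonic acid. It had 7.43, 12.8, 14.2 and 13.2 FPKM in knockouts 3, 9, 10 and 11, against 137, 66.3, 90.9 and 101 FPKM in wildtypes 1, 3, 10 and 12. The highest knockout library was far below the lowest wildtype library, and knockout 3 was the lowest of all. Its mean was 11.9 ± 3.04 FPKM in knockout and 98.8 ± 29.3 FPKM in wildtype liver (SD, n = 4 each), 8.31-fold lower, and the log2 change was -2.94 (SE 0.24, 95% interval -3.48 to -2.4, limma adjusted p = 0.000706).

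Cyp2c54 (ENSMUSG00000067225, chr19:40037940-40073827, minus strand) encodes an enzyme that oxidises arachidonic and linoleic acid. Its FPKM values were 24.3, 32.1, 38.3 and 50.5 in knockouts 3, 9, 10 and 11, against 284, 165, 207 and 281 in wildtypes 1, 3, 10 and 12. Here knockout 11 was the highest of the knockout libraries, and the genotypes did not overlap. The mean was 36.3 ± 11.1 FPKM in knockout and 234 ± 58.2 FPKM in wildtype liver (SD, n = 4 each), 6.45-fold lower, with a log2 change of -2.67 (SE 0.24, 95% interval -3.20 to -2.13, limma adjusted p = 0.00115).

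Cyp2c50 (ENSMUSG00000054827, chr19:40089688-40113950, plus strand), an arachidonic and linoleic acid epoxygenase gene, was the third most abundant of the 10 genes in knockout liver and the second in wildtype liver. Knockouts 3, 9, 10 and 11 had 45.8, 97.0, 102 and 81.0 FPKM, against 395, 257, 293 and 400 FPKM in wildtypes 1, 3, 10 and 12. Knockout 3 was again the lowest library, and no knockout library reached the wildtype range. The mean was 81.3 ± 25.3 FPKM in knockout and 336 ± 72.3 FPKM in wildtype liver (SD, n = 4 each), 4.13-fold lower, and the log2 change -2.07 (SE 0.25, 95% interval -2.64 to -1.5, limma adjusted p = 0.00306).

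Added together, a sum less affected by how reads were divided among them, Cyp2c37, Cyp2c50 and Cyp2c54 came to 77.5, 142, 154 and 145 FPKM in knockouts 3, 9, 10 and 11, against 816, 488, 591 and 782 FPKM in wildtypes 1, 3, 10 and 12. Their summed level was 129.5 ± 35.1 FPKM in knockout and 669 ± 156 FPKM in wildtype liver (SD, n = 4 each), 5.17-fold lower, and the knockout mean was 19.4% of the wildtype mean.

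In the group of Cyp2c29, Cyp2c38 and Cyp2c39 the genes differed in how far they lay below wildtype. Cyp2c29 (ENSMUSG00000003053, chr19:39269405-39330713, plus strand), an epoxygenase gene inducible by phenobarbital, was the most abundant of the 10 in both genotypes. It had 419, 533, 803 and 535 FPKM in knockouts 3, 9, 10 and 11, against 916, 862, 753 and 1157 FPKM in wildtypes 1, 3, 10 and 12. The genotypes overlapped, since knockout 10 exceeded wildtype 10. Its mean was 573 ± 163 FPKM in knockout and 922 ± 171 FPKM in wildtype liver (SD, n = 4 each), 1.61-fold lower, and the log2 change of -0.71 (SE 0.20, 95% interval -1.16 to -0.25, limma adjusted p = 0.0462) passed the threshold narrowly. It did not pass without knockout 3, 9 or 11 or wildtype 1, 3, 10 or 12, each left out alone (limma adjusted p = 0.0582 to 0.113), nor with quantile normalization (-0.38, limma adjusted p = 0.252), nor without knockouts 3 and 11 together (-0.48, limma adjusted p = 0.207).

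Cyp2c38 (ENSMUSG00000032808, chr19:39389556-39463075, minus strand), also an epoxygenase gene, was of low abundance. Its FPKM values were 0.845, 0.558, 0.718 and 2.22 in knockouts 3, 9, 10 and 11, against 14.1, 6.11, 8.10 and 10.01 in wildtypes 1, 3, 10 and 12. The groups did not overlap, and knockout 11 lay above the other knockout libraries. The mean was 1.09 ± 0.765 FPKM in knockout and 9.57 ± 3.39 FPKM in wildtype liver (SD, n = 4 each), 8.82-fold lower, with a log2 change of -2.35 (SE 0.27, 95% interval -2.96 to -1.74, limma adjusted p = 0.00295), a scale that understates the change of so low a gene.

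Cyp2c39 (ENSMUSG00000025003, chr19:39510862-39568529, plus strand), the gene of a retinoic acid hydroxylase, had 9.59, 6.40, 8.24 and 22.6 FPKM in knockouts 3, 9, 10 and 11, against 31.3, 13.2, 17.3 and 20.3 FPKM in wildtypes 1, 3, 10 and 12. Knockouts 3, 9 and 10 were all below the wildtype range, but knockout 11 stood at 110% of the wildtype mean. With that library included the gene did not pass, at 11.7 ± 7.39 FPKM in knockout and 20.5 ± 7.77 FPKM in wildtype liver (SD, n = 4 each) and a log2 change of -0.85 (SE 0.36, 95% interval -1.65 to -0.04, limma adjusted p = 0.147). Without knockout 11 the log2 change was -1.19 (limma adjusted p = 0.0236), and without knockouts 3 and 11 it was -1.31 (limma adjusted p = 0.0421). The summed level of Cyp2c29, Cyp2c38 and Cyp2c39 was 586 ± 162 FPKM in knockout and 952 ± 174 FPKM in wildtype liver (SD, n = 4 each), 1.63-fold lower with overlapping libraries.

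In the group of Cyp2c40, Cyp2c67, Cyp2c68 and Cyp2c69, 1 of 4 genes passed, Cyp2c68, where 14.4% of all tested genes passed. Cyp2c40 (ENSMUSG00000025004, chr19:39767071-39812814, minus strand), the gene of an arachidonic acid hydroxylase also known from the intestine, had 51.4, 89.0, 56.8 and 46.0 FPKM in knockouts 3, 9, 10 and 11, against 88.6, 102, 98.8 and 59.8 FPKM in wildtypes 1, 3, 10 and 12. Knockout 9 lay within the wildtype range and wildtype 12 near the other knockout libraries. Its mean was 60.8 ± 19.3 FPKM in knockout and 87.2 ± 19.1 FPKM in wildtype liver (SD, n = 4 each), and the log2 change of -0.53 (SE 0.23, 95% interval -1.04 to -0.02, limma adjusted p = 0.149) did not pass. It did pass without knockout 9 (-0.73, limma adjusted p = 0.0344).

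Cyp2c69 (ENSMUSG00000092008, chr19:39842814-39886799, minus strand) had 31.7, 57.0, 35.8 and 27.7 FPKM in knockouts 3, 9, 10 and 11, against 48.9, 55.0, 53.8 and 34.4 FPKM in wildtypes 1, 3, 10 and 12. Knockout 9 was the highest of the 8 libraries and wildtype 12 was again low. The log2 change was -0.36 (SE 0.23, 95% interval -0.86 to 0.15, limma adjusted p = 0.323), and the means were 38.1 ± 13.1 FPKM in knockout and 48.0 ± 9.45 FPKM in wildtype liver (SD, n = 4 each).

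Of their relatives outside the 10, Cyp2c67 averaged 412 ± 134 FPKM in knockout and 442 ± 106 FPKM in wildtype liver (SD, n = 4 each) and did not pass (log2 change -0.12, SE 0.23, limma adjusted p = 0.766), with the sign turned by quantile normalization (0.19). Cyp2c68 had 85.6, 129, 76.1 and 83.6 FPKM in knockouts 3, 9, 10 and 11, against 202, 245, 207 and 150 FPKM in wildtypes 1, 3, 10 and 12, with no overlap. It fell by 1.11 on the log2 scale (SE 0.19, limma adjusted p = 0.00749), a 2.15-fold lower mean, but it missed the threshold without knockouts 3 and 11 (-0.99, limma adjusted p = 0.052). Since the 4 genes share the most sequence, their summed level is the firmer figure: 604 ± 188 FPKM in knockout and 778 ± 163 FPKM in wildtype liver (SD, n = 4 each), 1.29-fold lower with overlapping libraries.

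Where 14.4% of all tested genes passed, 1 of the 3 tested genes without a close copy did, Cyp2c55. This gene (ENSMUSG00000025002, chr19:39007019-39042693, plus strand), a linoleic and arachidonic acid hydroxylase gene best known from the colon, had 0.948, 0.392, 1.74 and 1.55 FPKM in knockouts 3, 9, 10 and 11, against 4.98, 5.01, 2.55 and 6.26 FPKM in wildtypes 1, 3, 10 and 12. The highest knockout library was below the lowest wildtype library, wildtype 10, by less than 1 FPKM. The mean was 1.16 ± 0.610 FPKM in knockout and 4.70 ± 1.55 FPKM in wildtype liver (SD, n = 4 each), 4.07-fold lower, with a log2 change of -1.40 (SE 0.26, 95% interval -1.99 to -0.82, limma adjusted p = 0.00979).

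Cyp2c44, an arachidonic acid epoxygenase gene studied in kidney and blood vessels, had 131, 206, 223 and 148 FPKM in knockouts 3, 9, 10 and 11, against 239, 182, 216 and 205 FPKM in wildtypes 1, 3, 10 and 12. Knockouts 9 and 10 lay within the wildtype range, and knockouts 3 and 11 below it. The gene did not pass, at 177 ± 44.5 FPKM in knockout and 211 ± 23.7 FPKM in wildtype liver (SD, n = 4 each) and a log2 change of -0.28 (SE 0.18, 95% interval -0.67 to 0.12, limma adjusted p = 0.326). Without knockouts 3 and 11 the change was 0.03 (limma adjusted p = 0.897).

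Cyp2c70, which hydroxylates bile acids to muricholic acids in mice, lies at the distal end of the cluster beside Cyp2c50. It had 458, 519, 554 and 471 FPKM in knockouts 3, 9, 10 and 11, against 285, 459, 380 and 419 FPKM in wildtypes 1, 3, 10 and 12, and was the only one of the 13 tested Cyp2c genes with a higher mean in knockout liver. Its log2 change of 0.39 (SE 0.15, 95% interval 0.06 to 0.73, limma adjusted p = 0.113) did not pass, and the libraries overlapped. With quantile normalization it passed (0.70, limma adjusted p = 0.0271), as it did with a trend along transcript length removed (0.54, limma adjusted p = 0.0454). Cyp2c65 and Cyp2c66 were at or below 0.0197 FPKM in every library, about the value of a single fragment, and were not tested.

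**Figure D2:**
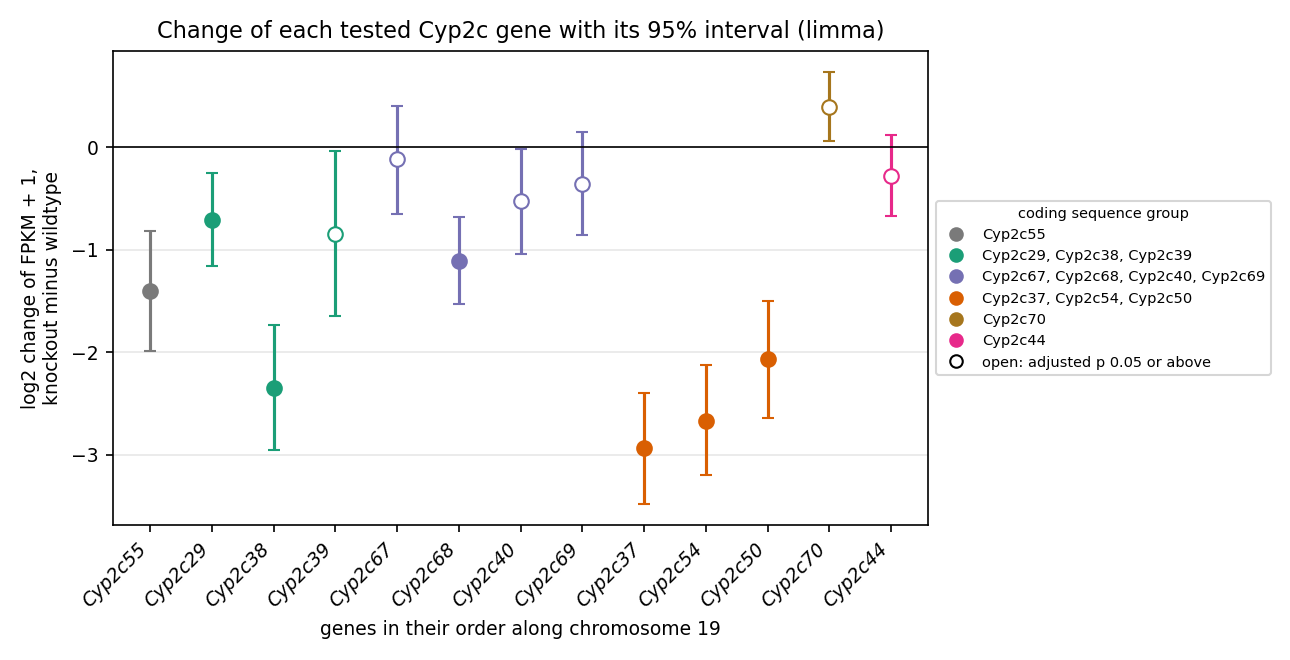
Log2 change of FPKM + 1, knockout minus wildtype, with 95% limma intervals for the 13 tested Cyp2c genes in their order along chromosome 19, coloured by coding sequence group and filled where the adjusted p was under 0.05. Cyp2c37, Cyp2c54, Cyp2c50 and Cyp2c38 lie between -2.94 and -2.07, while Cyp2c70, next to Cyp2c50, lies at 0.39.

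Adjoining genes could differ in their change. Cyp2c38 and Cyp2c39 adjoin, with log2 changes of -2.35 and -0.85, and Cyp2c50 and Cyp2c70 adjoin, with -2.07 and 0.39. Among tested protein-coding genes flanking the cluster, Tbc1d12 (-0.07, limma adjusted p = 0.647), Slc35g1 (-0.50, 0.125) and Pdlim1 (0.49, 0.198) did not pass. Fra10ac1, 783 kb away, was lower in knockout liver (-0.55, limma adjusted p = 0.00408), and Blnk, 742 kb away on the other side, was higher (0.64, limma adjusted p = 0.039).

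Summed over the 10 genes, the Cyp2c level was 721, 1035, 1283 and 928 FPKM in knockouts 3, 9, 10 and 11, against 2158, 1713, 1740 and 2274 FPKM in wildtypes 1, 3, 10 and 12. No knockout library reached the lowest wildtype library. The sum was 992 ± 234 FPKM in knockout and 1971 ± 287 FPKM in wildtype liver (SD, n = 4 each), so the knockout mean was 50.3% of the wildtype mean. It was 1.70-fold lower without knockouts 3 and 11. Adding the other 5 Cyp2c genes gave 1998 ± 363 FPKM in knockout and 2999 ± 171 FPKM in wildtype liver, 1.5-fold lower. Of the difference between the means of the 10-gene sum, Cyp2c29 made up 35.6%, Cyp2c50 26.0%, Cyp2c54 20.2% and Cyp2c37 8.88%. The other 6 genes contributed 3.44% or less each.

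**Figure D3:**
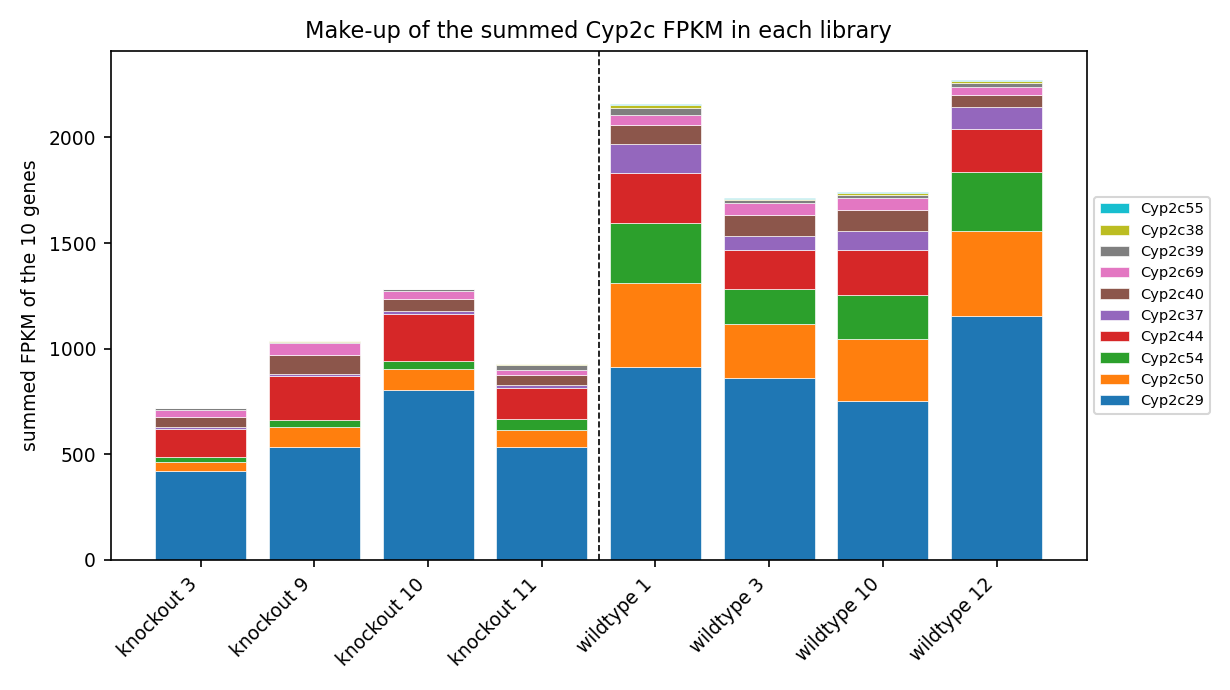
Summed FPKM of the 10 Cyp2c genes in each library, stacked by gene, with the 4 knockout libraries on the left and the 4 wildtype libraries on the right of the dashed line. The knockout bars end between 721 and 1283 FPKM and the wildtype bars between 1713 and 2274 FPKM.

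The make-up of the sum is given without a test. Cyp2c37, Cyp2c50 and Cyp2c54 together held 10.7%, 13.7%, 12% and 15.6% of it in knockouts 3, 9, 10 and 11, against 37.8%, 28.5%, 34.0% and 34.4% in wildtypes 1, 3, 10 and 12. Cyp2c29 held 57.5% ± 4.53 in knockout and 46.7% ± 4.49 in wildtype liver (SD, n = 4 each). Cyp2c44, whose own level did not pass, held 17.8% ± 1.65 in knockout and 10.8% ± 1.41 in wildtype liver, and was the second most abundant of the 10 genes in knockout liver. These shares are parts of a whole, so a lower share of some genes raises that of the rest.

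Cyp2c38 kept a narrow ratio to Cyp2c39 within each genotype, as did Cyp2c69 to Cyp2c40, while the other pairs given here varied more. Cyp2c38 stood at 8.81%, 8.71%, 8.71% and 9.81% of the Cyp2c39 FPKM in knockouts 3, 9, 10 and 11, against 44.8%, 46.3%, 46.9% and 49.4% in wildtypes 1, 3, 10 and 12. Both genes were highest in knockout 11 among the knockout libraries and in wildtype 1 among the wildtype libraries, so their levels moved together while their ratio stayed within 2 narrow bands. Cyp2c37 stood at 14.9% ± 1.56 of the Cyp2c50 FPKM in knockout and 29.2% ± 4.49 in wildtype liver (SD, n = 4 each). Cyp2c69 stood at 62.2% ± 1.69 of Cyp2c40 in knockout and 55.3% ± 1.54 in wildtype liver. Cyp2c40 stood at 64.8% ± 8.81 of Cyp2c68, the gene most alike to it in coding sequence, in knockout and 43.2% ± 3.48 in wildtype liver (SD, n = 4 each).

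The ratio was compared for all 12 pairs of tested genes within the sequence groups, a comparison added after the values had been seen. For 9 pairs the genotypes did not overlap, with a two-sided exact permutation p = 0.0286 on the log2 ratio, the smallest that 4 against 4 libraries can give, and 0.0381 after Benjamini-Hochberg adjustment over the 12 pairs. Over all 52147578 pairs of tested genes above 0 in every library, the genotypes did not overlap in the ratio for 19.7%. The 12 pairs reuse the same genes within each group, so they are not independent of one another. A lower level of a single gene enters every pair that holds it. Beside the pairs above, the 9 included Cyp2c68 with Cyp2c67 (23.3% ± 4.31 in knockout and 46.2% ± 7.52 in wildtype liver) and Cyp2c54 with Cyp2c50 (46.6% ± 13.6 in knockout and 69.3% ± 3.47 in wildtype liver). The 3 pairs that overlapped were Cyp2c39 with Cyp2c29 (2.19% ± 1.47 in knockout and 2.25% ± 0.844 in wildtype liver, exact permutation p = 0.686), Cyp2c69 with Cyp2c67 (exact permutation p = 0.143) and Cyp2c37 with Cyp2c54 (33.4% ± 6.25 in knockout and 42.1% ± 5.16 in wildtype liver, exact permutation p = 0.114). Reads assigned to the wrong copy would enter these ratios, and their part in the result was not tested.

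**Figure D4:**
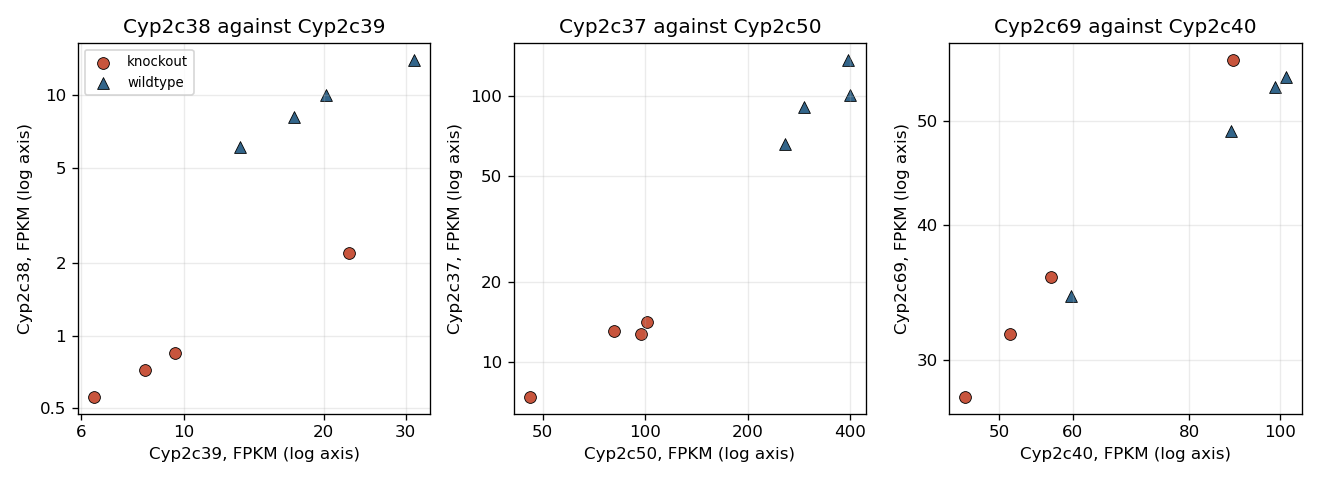
FPKM of close relatives in each library on log axes, with Cyp2c38 against Cyp2c39, Cyp2c37 against Cyp2c50 and Cyp2c69 against Cyp2c40, as circles for 4 knockout and triangles for 4 wildtype libraries. For Cyp2c38 against Cyp2c39 the genotypes form separate parallel rows, at 9.01% in knockout and 46.9% in wildtype libraries on average, while for Cyp2c69 against Cyp2c40 they lie close, at 62.2% in knockout and 55.3% in wildtype libraries.

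Counts of passing genes in this and the following lists stand beside 11.7% of all tested genes lower and 2.7% higher. The genes that act with the Cyp2c enzymes showed no common direction. Of 5 tested genes of other epoxygenases and epoxide hydrolases 1 was lower and 0 higher (median log2 change -0.14), the lower being Cyp2j9 (log2 change -0.57, SE 0.15, limma adjusted p = 0.0333), which missed the threshold when knockouts 3 and 11 were left out (-0.45, limma adjusted p = 0.153). Ephx2, which encodes soluble epoxide hydrolase, was at 243 ± 64.8 FPKM in knockout and 286 ± 47.7 FPKM in wildtype liver (SD, n = 4 each) and did not pass (log2 change -0.26, SE 0.21, limma adjusted p = 0.446). Of 11 tested arachidonic acid omega-hydroxylase genes of the Cyp4 family, a competing route of arachidonic acid oxidation, 0 passed in either direction (median 0.08).

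Of 14 genes of electron donors and haem synthesis and breakdown 1 was lower and 1 higher (median log2 change -0.14). Cyb5a, the gene of cytochrome b5, had 1149, 1290, 1178 and 1341 FPKM in knockouts 3, 9, 10 and 11, against 2342, 2108, 2025 and 1682 FPKM in wildtypes 1, 3, 10 and 12. The groups did not overlap, and the log2 change was -0.71 (SE 0.12, limma adjusted p = 0.00802). Hmox1, which encodes a haem-degrading oxygenase, was higher in knockout liver (log2 change 0.48, SE 0.12, limma adjusted p = 0.0273), but missed the threshold when knockouts 3 and 11 were left out (0.49, limma adjusted p = 0.093). Por, the gene of P450 reductase, had 144, 57.0, 79.2 and 163 FPKM in knockouts 3, 9, 10 and 11, against 68.1, 51.6, 64.0 and 81.8 FPKM in wildtypes 1, 3, 10 and 12, and did not pass (log2 change 0.63, SE 0.31, limma adjusted p = 0.211). Its knockouts 3 and 11 were high and knockouts 9 and 10 within the wildtype range.

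Other P450 genes were followed for comparison. Among 24 tested xenobiotic P450 genes outside the Cyp2c family 8 were lower and 1 higher in knockout liver, with a median log2 change of -0.23. Cyp2a5, a coumarin hydroxylase gene, had 133, 166, 199 and 328 FPKM in knockouts 3, 9, 10 and 11, against 948, 381, 589 and 649 FPKM in wildtypes 1, 3, 10 and 12. It was lower in each knockout library (log2 change -1.64, SE 0.32, limma adjusted p = 0.0109). Cyp3a16 (-0.7), Cyp2g1 (-0.90) and Cyp2a4 (-1.29) were also lower. Cyp2g1 was of low abundance, with means of 0.915 FPKM in knockout and 2.62 FPKM in wildtype liver. For Cyp2a4 the genotypes overlapped, with knockout 11 at 24.8 FPKM and wildtype 3 at 22.8 FPKM. Among 9 sterol and bile acid P450 genes Cyp46a1 was lower (-0.78) and Cyp7b1, an oxysterol hydroxylase gene, higher (log2 change 0.99, SE 0.22, limma adjusted p = 0.0183), with a median of -0.19. Cyp46a1 missed the threshold with knockouts 3 and 11 left out (-0.66, limma adjusted p = 0.151). The difference between the Cyp2c genes and these lists was not tested.

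**Figure D5:**
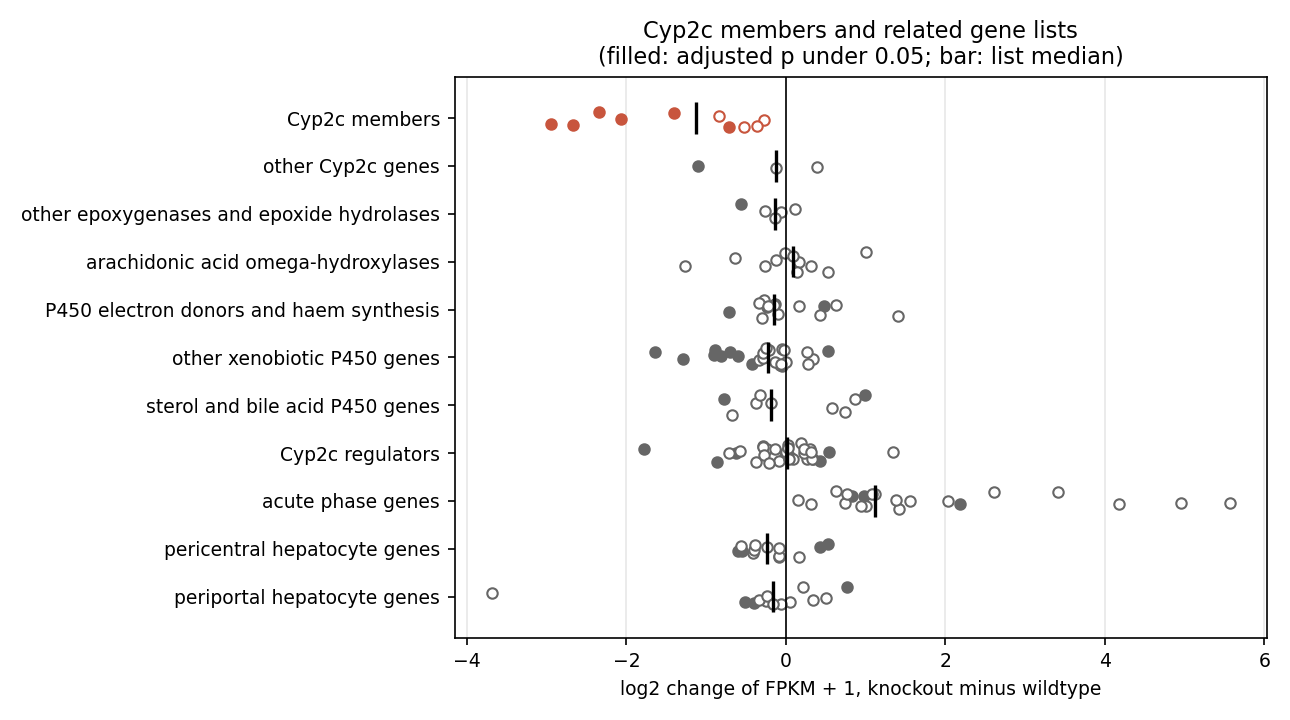
Log2 change of FPKM + 1, knockout minus wildtype, for each tested gene of the Cyp2c members and of 10 related lists, with points for genes, filled where the adjusted p was under 0.05, and bars for list medians. The Cyp2c members have a median of -1.12, the xenobiotic P450 genes -0.23 and the acute phase genes 1.12.

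Among 32 tested genes of factors that regulate Cyp2c genes in the liver, Foxo1 included, 3 were lower and 2 higher (median log2 change 0.02). Over all tested genes 14.4% passed in either direction. Nr1i3, the gene of the constitutive androstane receptor, had 54.3, 69.5, 54.8 and 69.9 FPKM in knockouts 3, 9, 10 and 11, against 133, 87.3, 128 and 110 FPKM in wildtypes 1, 3, 10 and 12. The groups did not overlap, and the mean was 62.1 ± 8.74 FPKM in knockout and 115 ± 20.5 FPKM in wildtype liver (SD, n = 4 each) (log2 change -0.86, SE 0.15, limma adjusted p = 0.00823). Nr1i2, the gene of the pregnane X receptor, was at 23.5 ± 8.33 FPKM in knockout and 17.9 ± 2.19 FPKM in wildtype liver (SD, n = 4 each) and did not pass (log2 change 0.33, SE 0.20, limma adjusted p = 0.297). Nfe2l2, the gene of the antioxidant response factor NRF2, was also lower (log2 change -0.62, SE 0.16, limma adjusted p = 0.0339), but missed the threshold when both knockouts 3 and 11 were left out (-0.44, limma adjusted p = 0.136).

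Hnf4a had 95.8, 92.1, 69.7 and 93.7 FPKM in knockouts 3, 9, 10 and 11, against 67.6, 55.7, 70.5 and 65.3 FPKM in wildtypes 1, 3, 10 and 12. The single low knockout library, knockout 10, overlapped the wildtype range. The log2 change of 0.43 (SE 0.12, limma adjusted p = 0.0494) passed narrowly, and the call was lost under 14 of 20 alternatives. Foxa3, a forkhead factor gene of hepatocytes, was higher too (log2 change 0.54, SE 0.15, limma adjusted p = 0.0413), and it lost the call under 8 of 20. Neither passed with knockouts 3 and 11 left out, at 0.31 for Hnf4a (limma adjusted p = 0.227) and 0.41 for Foxa3 (limma adjusted p = 0.143).

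By their sum, acute phase genes were highest in knockouts 3 and 11. The 21 genes of the list summed to 116200, 15460, 16120 and 110200 FPKM in knockouts 3, 9, 10 and 11, against 12340, 12650, 12790 and 13340 FPKM in wildtypes 1, 3, 10 and 12. Of these genes 3, Lrg1, C3 and Fga, were higher and 0 lower in knockout liver, and the median log2 change was 1.12. Neutrophil markers summed to 60.3, 2.66, 5.51 and 147 FPKM in knockouts 3, 9, 10 and 11, against 1.87, 4.59, 1.51 and 5.12 FPKM in wildtypes 1, 3, 10 and 12, with Ly6g at 0 in 6 libraries, Mpo in 4 and Retnlg in 3. In knockouts 9 and 10 the acute phase sums also lay above every wildtype library. Without knockouts 3 and 11 Saa1, Lrg1, C3 and Fga remained higher in knockout liver, with log2 changes of 1.81, 1.22, 0.5 and 0.48 (limma adjusted p = 0.00968 to 0.0485). Inflammation lowers many P450 genes in liver, and its part in the Cyp2c result was not tested. Without knockouts 3 and 11 the log2 changes of Cyp2c37, Cyp2c54, Cyp2c38, Cyp2c50 and Cyp2c55 were -2.74, -2.67, -2.64, -1.72 and -1.5, each past the threshold (limma adjusted p = 0.00905 to 0.0429). In that fit 6 of the 10 genes were lower, Cyp2c39 in place of Cyp2c29, against 6.4% of all tested genes, and 0 were higher, against 1.94%.

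Cell position in the liver lobule also bears on P450 levels, since many P450 genes are strongest around the central vein. Of 13 tested pericentral hepatocyte genes 2 were lower (Rgn and Cyp2e1) and 2 higher (Cyp1a2 and Glul), with a median log2 change of -0.24. Of 13 tested periportal genes Hsd17b13 and Hal were lower and Cdh1 higher, with a median of -0.16. Without knockouts 3 and 11 Rgn (-0.41), Cyp2e1 (-0.43), Glul (0.38), Hsd17b13 (-0.53) and Hal (-0.44) did not pass (limma adjusted p = 0.0576 to 0.134). Sinusoidal endothelial markers summed to 38.5 to 68.5 FPKM in knockout and 68.5 to 88.9 FPKM in wildtype libraries, with 2 of 7 tested, Egfl7 and Stab1, lower and 0 of the 8 at 0 in any library. Both calls were lost with knockouts 3 and 11 left out, at -0.63 for Egfl7 (limma adjusted p = 0.0958) and -0.96 for Stab1 (limma adjusted p = 0.0797). The sums of macrophage (47.6 to 79.0 FPKM in knockout and 57.8 to 79.2 FPKM in wildtype libraries), stellate (27.8 to 64.8 in knockout and 53.1 to 63.8 in wildtype), cholangiocyte (15.6 to 24.8 in knockout and 11.3 to 16.7 in wildtype) and lymphocyte markers (1.78 to 2.71 in knockout and 0.827 to 1.92 in wildtype) overlapped, and 0 of their 13 tested genes passed. Of the lymphocyte markers Cd3e was at 0 in 2 libraries, Cd8a in 2 and Ms4a1 in 1. Their part in the Cyp2c result was not tested.

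The genes whose log2(FPKM + 1) followed the log2 sum of the 10 Cyp2c genes most closely over the 8 libraries, by Pearson r and outside the family, were Zbed5 (0.995), Hibadh (0.995), Cyc1 (0.994), Mrpl9 (0.991) and Atp5f1 (0.991). After each genotype was centred on its own mean they were Dennd1a (0.992), Hibadh (0.984), Zbed5 (0.981), Ndufa10 (0.98) and Cyc1 (0.971). These are the highest of 10250 genes, and the coefficients describe 8 libraries that fall into 2 groups in the first case. Hibadh, which encodes an enzyme of valine breakdown, Cyc1, a respiratory chain subunit gene, and Zbed5 were on both lists. Hibadh was lower in knockout liver, at 144 ± 17.3 FPKM in knockout and 199 ± 17.7 FPKM in wildtype liver (SD, n = 4 each) (log2 change -0.46, SE 0.11, limma adjusted p = 0.0245), while Dennd1a (log2 change -0.09, SE 0.10, limma adjusted p = 0.587) and Ndufa10 (log2 change -0.12, SE 0.12, limma adjusted p = 0.55) did not pass. Hibadh missed the threshold with knockouts 3 and 11 left out (-0.33, limma adjusted p = 0.111).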

How the data were processed

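Liver RNA of 4 knockout and 4 wildtype libraries was sequenced. Total RNA was isolated with Trizol, DNase-treated and column-purified, per the labels' protocols. The authors deposited FPKM for 25690 Ensembl genes, a unit inferred from the values and the tools, since the header names only libraries. The submitters' processing notes name TopHat2 2.1.0, HTSeq, Cufflinks 2.2.1 and mm10. The sources used here do not give the annotation, read length or strand setting, so overlapping and similar genes may share fragments. As FPKM are not counts, count models were not applied.

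The 10250 genes whose mean reached 1 FPKM were kept. A limma 3.58.1 fit in R 4.3.3 on log2(FPKM + 1), which understates changes of low genes, had genotype as its only term, a mean trend in the variance, two-sided p-values and a Benjamini-Hochberg threshold of 0.05. Gene names were found for 24807 genes. Sums, shares and their differences were given without a test. Coding sequences were aligned with Biopython 1.88, and steps across genes were tested on simulated data. The alternatives changed the scaling, pseudocount, low-value filter or variance model, weighted the libraries, and also comprised the title number as a block, removal of a trend along transcript length, leaving out libraries, and another threshold. The 10 genes, the other lists, the tests and the alternatives were chosen with earlier results of these data known. Named genes are all Cyp2c genes, Foxo1, Nr1i3, Nr1i2, Hnf4a, Por, Ephx2 and Saa1, up to 4 passing genes with the smallest adjusted p of each list, the 5 genes most like the Cyp2c sum by each measure, and genes with an outlying library. The genes flanking the cluster and the ratios between close relatives were chosen after the values were seen. An exact 0 can be a failed estimate (Alb is listed at 0 in knockout 10) and was taken as 0. Some genes are not reported here.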

Additional observations from a re-analysis of the deposited data

Results flagged for a closer look

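In 6 of 106 groups of 4 libraries examined, each a gene, or the summed level of the 10 Cyp2c genes, in a genotype, the highest or lowest library lay apart from the other three by more than Dixon's 95% critical value for 4 values, where chance flags about 1 in 20. The only Cyp2c gene among them was Cyp2c66, listed at 0.0106 FPKM in wildtype 1 and at 0 in the other wildtype libraries, less than the value of a single fragment. Among regulators Hnf4a was low in knockout 10, at 69.7 FPKM against 92.1 to 95.8 in the other knockout libraries, and Foxa3 was high in knockout 3, at 23.8 FPKM against 16.3 to 17.0. Cyp46a1 was high in knockout 10, at 1.13 FPKM against 0.397 to 0.48 in the other knockout libraries, and so was the endothelial gene Egfl7, at 16.2 FPKM against 9.87 to 10.2. C3 was low in wildtype 3, at 1130 FPKM against 1330 to 1360 in the other wildtype libraries.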

How the results depend on the processing

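Cyp2c37, Cyp2c38, Cyp2c50, Cyp2c54 and Cyp2c55 kept direction and call under every alternative but the replicate block (Cyp2c55 was not tested at a mean FPKM of at least 5), with limma adjusted p of up to 0.0429. The summed fold lay between 1.5 and 2.2. With the number in the titles as a replicate block, which leaves 2 pairs, 2 genes were called (1 higher, 1 lower) in place of 1472, and 0 of the 10 members in place of 6. Log2 changes were then -0.47 for Cyp2c29 (limma adjusted p = 0.53), -2.80 for Cyp2c37 (0.17), -2.18 for Cyp2c38 (0.175), -1.99 for Cyp2c50 (0.268), -2.56 for Cyp2c54 (0.175) and -1.0 for Cyp2c55 (0.301). Deviations of same-numbered libraries correlated at -0.008 (number 3) and 0.022 (number 10). The labels do not say what the numbers mean, and 2 pairs cannot show whether same-numbered libraries were paired.

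Cyp2c29 did not pass with no filter (-0.71), median-ratio scaling (-0.60), quantile normalization (-0.38), library weights (-0.62), the length trend removed (-0.62) or knockouts 3 and 11 left out (-0.48), and leaving out single libraries gave -0.88 to -0.57, past the threshold only without knockout 10. Cyp2c39 passed without knockouts 3 and 11 (-1.31), with leave-one-out values of -1.19 to -0.63. Cyp2c40 passed with library weights (-0.66), with leave-one-out values of -0.73 to -0.41. The sign turned for Cyp2c44 (0.03) and Ephx2 (0.04) without knockouts 3 and 11, and for Cyp2c67 with quantile normalization (0.19), the length trend removed (0.02), knockouts 3 and 11 out (0.21), and knockout 11 (0.02) or wildtype 3 (0.02) out, with leave-one-out values of -0.32 to 0.02. It also turned for Dennd1a (0.01 without knockouts 3 and 11) and Ndufa10 (0.06 with quantile normalization, 0.01 with the length trend removed, 0.03 without knockouts 3 and 11). The causes were not tested. Of the called genes outside the family, Hnf4a lost its call under 14 of 20 alternatives, Hal under 13, Nfe2l2 and Cyp2j9 under 12, Cyp2e1 under 11, Fga under 10, Hsd17b13, Hmox1, Atp5f1 and Foxa3 under 8, C3 and Hibadh under 7, Cyp2a4 under 6, and Cyp46a1 under 9 of 19. The other named genes that passed lost theirs under 5 or fewer.

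Over all genes 855 were called without knockouts 3 and 11, 2257 at an adjusted p under 0.1, and 701 (without wildtype 1) to 1654 (without knockout 9) when single libraries were left out. Median-ratio scaling called 485 higher and 720 lower, quantile normalization 470 and 652, and the length trend removed 495 and 594, in place of 277 and 1195, and moved the median log2 change of all genes from -0.08 to between -0.01 and 0.01.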
